A study of Mus musculus with 87 samples.

Results

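T, Mixl1, Gsc, Mesp1, Mesp2, Tbx6, Msgn1, Evx1, Eomes and Fgf8 are 10 regulators of the primitive streak and early mesoderm. They were taken by gene symbol from 13 deposited RNA-seq comparison tables, each with 26171 symbols, and all 10 had a row in every table. The libraries came from mouse embryonic stem cells (ESC) of the line 129-B13, kept in 20% serum with LIF, and from neuronal precursors (NP) derived from them through embryoid bodies, with retinoic acid at day 4 and harvest at day 8. The study altered Suz12, a core subunit of Polycomb repressive complex 2 (PRC2), whose exon 4 is alternatively spliced.

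The ESC groups were wild type (WT, 3 libraries), CSex4 cells that always include exon 4 (2 libraries), Deltaex4 cells, in which exon 4 is deleted and which the series text also calls a Suz12 knock-out (2 libraries), and the full Suz12 knock-out (KO, 3 libraries). Rescue groups were KO cells with the long Suz12 isoform (KO-L, 2 libraries) or the short one (KO-S, 2 libraries). KO-L3D and KO-S3D (2 libraries each) were KO cells with the long or the short isoform, placed in the Rosa26 locus, that also carried a mutation named 3D. In NP there were 4 WT libraries and 2 each of KO, KO-L, KO-S, CSex4 and Deltaex4. The labels name 1 cell line for all groups and do not say whether a genotype is 1 clone or several. They also do not say that libraries of a group came from separate cultures. So p-values measure the spread between these libraries, or within pairs of them if the authors' fit was paired, and that spread may be technical.

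The primitive streak is the structure through which epiblast cells of the gastrulating embryo leave to form mesoderm and definitive endoderm. Wnt, Nodal and FGF signals induce it, and T (Brachyury), Eomes and Mixl1 are among the first transcription factors made there. In pluripotent cells such developmental genes lie in CpG-rich chromatin bound by PRC2, the enzyme complex that lays down H3K27me3, a histone mark of repressed genes.

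Start sites are shown for T, Eomes, Gsc and Evx1, because these 4 were called higher in the ESC KO and their start sites lay inside listed Suz12 regions. Each line gives the 250 bases before the start site, from RefSeq (GRCm38.p6, the assembly also named mm10), 5′ to 3′ in the direction of transcription. Capitals mark 2 motifs on either strand: CTTTGA, the core of sites of the Wnt effectors TCF and LEF, and AGGTGT, a core of T-box sites. They are, in order, chr17:8434173-8434422 (plus strand), chr9:118477939-118478188 (plus strand), chr12:104473237-104473486 (minus strand) and chr6:52313248-52313497 (plus strand). The Eomes window ends just past the gene start used below (chr9:118478186), so the 2 start sites of Eomes differ by a few bases.
T: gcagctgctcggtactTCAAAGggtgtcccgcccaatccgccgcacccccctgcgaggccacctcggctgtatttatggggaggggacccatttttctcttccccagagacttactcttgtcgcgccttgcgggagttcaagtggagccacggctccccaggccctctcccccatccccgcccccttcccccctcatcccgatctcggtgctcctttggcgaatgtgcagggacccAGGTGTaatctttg
Eomes: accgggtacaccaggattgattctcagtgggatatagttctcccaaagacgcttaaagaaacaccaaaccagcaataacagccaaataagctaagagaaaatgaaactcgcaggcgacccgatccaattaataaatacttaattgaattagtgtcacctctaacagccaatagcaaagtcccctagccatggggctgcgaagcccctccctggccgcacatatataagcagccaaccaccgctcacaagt
Gsc: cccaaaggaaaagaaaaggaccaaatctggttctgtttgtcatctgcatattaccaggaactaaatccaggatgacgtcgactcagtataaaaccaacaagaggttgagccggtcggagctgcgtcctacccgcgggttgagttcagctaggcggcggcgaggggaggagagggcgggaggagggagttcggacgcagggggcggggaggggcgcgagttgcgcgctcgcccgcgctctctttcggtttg
Evx1: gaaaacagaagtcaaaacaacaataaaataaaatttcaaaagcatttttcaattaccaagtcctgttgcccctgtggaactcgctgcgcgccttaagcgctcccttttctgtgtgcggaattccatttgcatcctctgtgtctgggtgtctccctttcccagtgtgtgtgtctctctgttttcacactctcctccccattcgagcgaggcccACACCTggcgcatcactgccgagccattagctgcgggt

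The T window held 1 match to CTTTGA (on the other strand, bases -234 to -229 from the start site) and 1 to AGGTGT (bases -14 to -9). The Evx1 window held 1 match to AGGTGT (on the other strand, -38 to -33), and the Eomes and Gsc windows held neither. Of 32851 start-site windows in the RefSeq table, 13.8% held CTTTGA and 11.8% held AGGTGT on either strand, so such matches are common, and a match is a description of letters and not a bound site. The motif AATNCACA of the Nodal effector FOXH1 was in 3.18% of all windows and in none of the 8 members with a window. CpG dinucleotides numbered 22 before Gsc, 14 before T, 10 before Evx1 and 8 before Eomes, against a median of 6 over all windows.

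The deposited ChIP-seq data used here are 2 lists of regions from ESC, 2865 for Suz12 and 6882 for H3K27me3, named WT and cut at a false discovery rate of 5% by DiffBind per the file headers, which do not name the group that WT was set against. A listed Suz12 region lay on or within 2500 bp of 7 of the 10 genes (T, Eomes, Gsc, Evx1, Mixl1, Fgf8 and Mesp1). The same held for 11.8% of 21887 protein-coding genes. H3K27me3 regions lay at these 7 genes and at Mesp2, 8 of 10 in all, against 22.3% of protein-coding genes. Tbx6 and Msgn1, both genes of presomitic mesoderm, had neither.

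At T (chr17:8434423-8442496) the Suz12 region was 5729 bp wide (chr17:8430616-8436344) and the H3K27me3 region 11844 bp (chr17:8427276-8439119), and both covered the start site. Evx1 (chr6:52313498-52318389) lay wholly inside an H3K27me3 region of 20331 bp, the widest at any of the 10 genes, and its Suz12 region was 9408 bp wide. Gsc (chr12:104471209-104473236) lay wholly inside a 7963 bp Suz12 region and an 11248 bp H3K27me3 region. Eomes (chr9:118478186-118486132) had a region of each kind at both ends of the gene, with 6555 bp of Suz12 and 8880 bp of H3K27me3 over the start site. The 4 genes thus share broad regions that reach to both sides of the start site. Broad regions were not limited to them: Fgf8, not called in KO, had an H3K27me3 region of 12457 bp. Those at Mesp1 were 2189 bp for Suz12 and 4789 bp for H3K27me3.

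**Figure D1:**
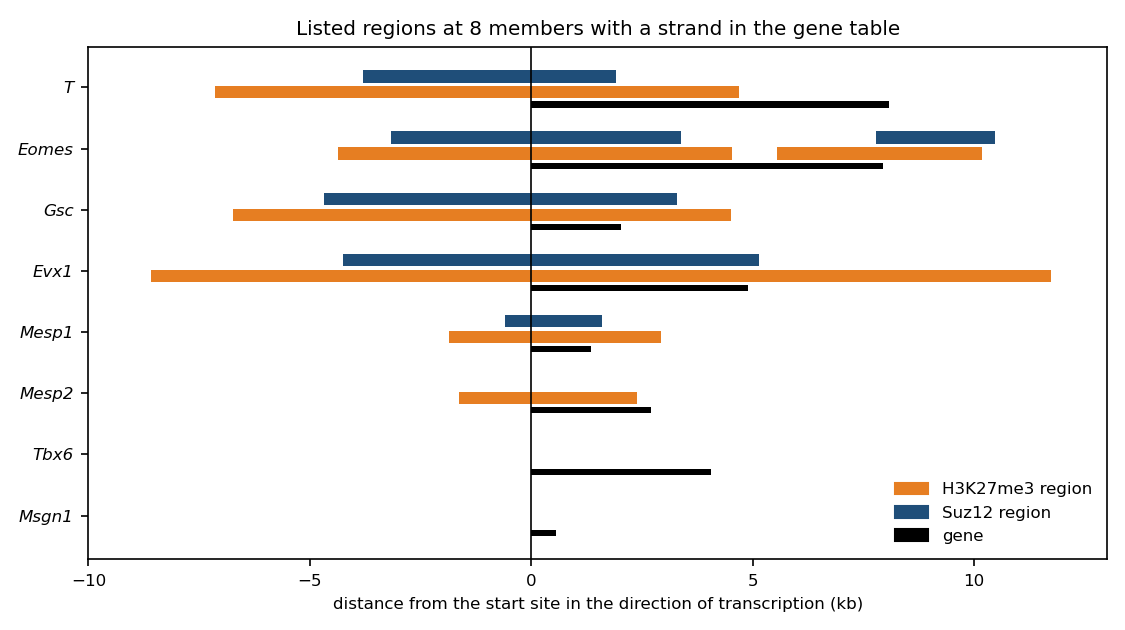
Listed Suz12 (blue) and H3K27me3 (orange) regions of ESC drawn to scale around 8 of the 10 genes (black), with the distance from the start site in kb on the x axis, positive in the direction of transcription. T, Eomes, Gsc, Evx1 and Mesp1 have both marks over the start site, Mesp2 has only H3K27me3, and Tbx6 and Msgn1 have neither; Mixl1 and Fgf8 have no strand in the gene table and are not drawn.

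The tables give statistics of comparisons. Because each deposited mean is a sum of whole reads with 1 weight per library, the reads of every library could be solved for all 10 genes in ESC and in NP. They are given as scaled reads, that is reads divided by the library's size factor relative to WT of the same stage; ESC and NP levels are not on 1 scale. The mean depth per library ran from 26085100 to 31499800 scaled reads across the comparisons. Below, called means that the adjusted p of DESeq2 that the authors deposited, adjusted across a whole table, was under 0.05. Of the 3 ESC WT libraries, 1 had no bearing on the fold changes of any ESC table but that of KO, so the other 6 rest on 2 WT libraries. The 7 ESC tables share their WT libraries, and the NP tables share WT or KO libraries, so comparisons within a stage are not independent.

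Suz12 itself was examined as a check of the labels. In the authors' deposited tables its log2 fold change against WT was -1.82 ± 0.22 (SE) in ESC KO and -2.14 ± 0.33 in NP KO. The libraries labelled KO-L3D stood at -1.85 ± 0.28 in the authors' deposited table, near the KO, and those labelled KO-S3D at -0.06 ± 0.42. The authors' deposited tables also called Suz12 lower than WT in both isoform rescues, at -1.05 ± 0.28 with the long isoform (adjusted p 0.0143) and -0.83 ± 0.27 with the short one (adjusted p 0.0345). Deltaex4 had -1.28 ± 0.40 in the authors' deposited table, without being called. Some libraries stood apart in markers of other cell types. The summed level of 5 endoderm markers (Gata4, Gata6, Sox17, Foxa2 and Sox7) was 2141 scaled reads in 1 ESC WT library and 103 and 112 in the other 2, and it was 3723 and 4960 in ESC KO-S. The WT library at 2141 is 1 of the 2 WT libraries on which the 6 ESC comparisons other than KO rest. The summed level of 3 trophoblast markers (Elf5, Gata3 and Krt7) was 5700 scaled reads in 1 KO-S3D library and 91.1 in the other. Differences of T in log2 (scaled reads + 1) were also taken without the WT library high in endoderm markers. They were 4.15 in CSex4 (4.18 with it), 3.23 in KO (3.27) and 4.44 in KO-L (4.48). The sign of a called ESC difference could not change in this way, because the groups did not overlap. The WT mean here still includes the library with no bearing on the deposited fold changes of CSex4 and KO-L.

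T, Eomes, Gsc, Evx1 and Tbx6 were called in at least 1 comparison, and the other 5 genes in none. In ESC, 4 genes were called higher in KO (T, Eomes, Gsc and Evx1), in a table in which 11% of tested genes were called higher. KO-L had 2 called higher (T and Eomes; background 1.46%), the libraries labelled KO-L3D had 2 (Eomes and Gsc; 8.22%), CSex4 had 1 (T; 1.72%) and KO-S3D had 1 (Eomes; 2.05%). In KO-S none was called (4.28% of genes higher), and 1 of the 10 had an unadjusted p under 0.05 in DESeq2, as did 2855 of 20280 genes. In Deltaex4 none was called, no gene of the table was (0%), and none of the 10 had an unadjusted p under 0.05 in DESeq2, as 135 of 20263 genes did. These are fewer genes than a threshold of 0.05 gives by chance, so the lack of a call does not show that the 10 genes stayed level there. No member was called lower in ESC, where at most 10.1% of tested genes were (in KO-L3D). The median log2 fold change of the 10 genes was 1.82 in KO, 1.77 in KO-L, 1.58 in KO-L3D, 1.07 in CSex4, 0.97 in KO-S3D, 0.73 in KO-S and 0.53 in Deltaex4, where the medians over all genes ran from 0.01 to 0.10. These medians give full weight to genes with few reads. In Deltaex4 the highest values in the authors' deposited table were Fgf8 (1.73 ± 2.49), Msgn1 (1.40 ± 4.82) and Mesp1 (0.87 ± 4.82). These genes had 10, 6 and 2 reads in that group, so its median does not show a rise of the 10 genes.

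In NP, CSex4 had Eomes called higher (background 4.08%) and KO had Gsc called higher (11.6%). Against KO, KO-L had Eomes and Tbx6 higher (10.9%) and Gsc lower (13.8%), and WT had Eomes lower (17.3%). None was called in NP Deltaex4, where 0.0809% of genes were called and no member had an unadjusted p under 0.05 in DESeq2, as 398 of 20917 genes did. As in ESC Deltaex4, these are fewer genes than that threshold gives by chance. None was called in NP KO-S against KO either, where 34.5% of genes were called in DESeq2. There 1 member had an unadjusted p under 0.05 in DESeq2, as did 6915 of 21100 genes.

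**Figure D2:**
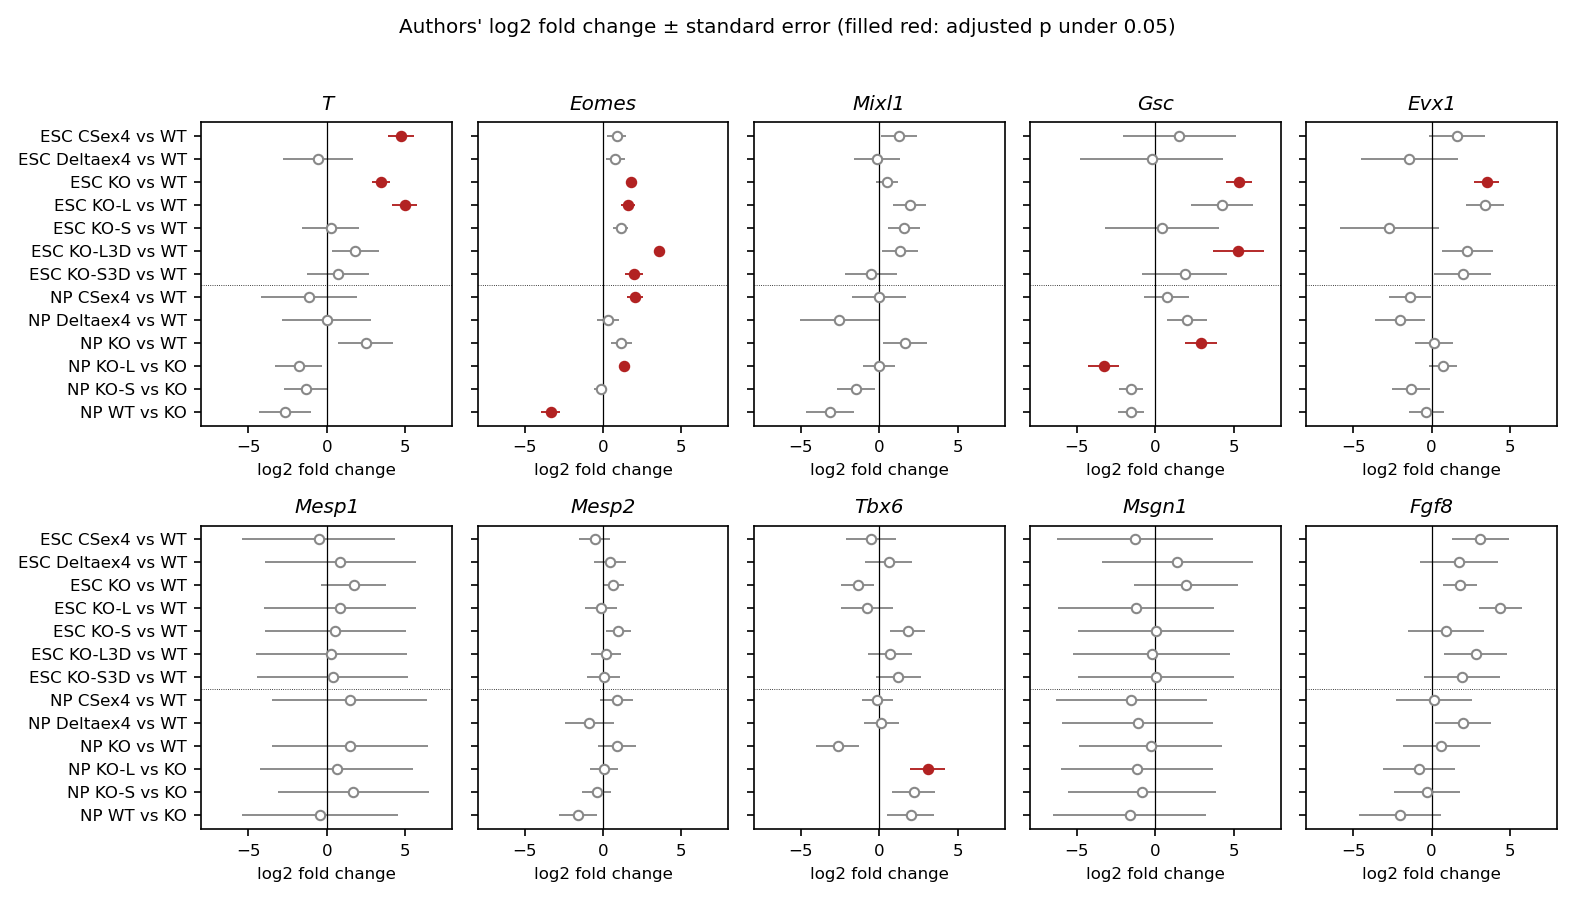
The authors' log2 fold change (x axis) with its standard error for each of the 10 genes in the 13 comparisons (rows, ESC above the dotted line and NP below); filled red points have an adjusted p under 0.05. T is red in ESC CSex4, KO and KO-L, Eomes in 7 tables, Gsc in 4, Evx1 and Tbx6 in 1 each, and the wide bars of Mesp1 and Msgn1 come from genes with a handful of reads.

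T encodes Brachyury, the T-box factor that specifies streak mesoderm and notochord. In ESC WT it was near silent, at 4.89, 6.58 and 10.3 scaled reads. CSex4 had 293 and 70.2 and KO-L had 171 and 181, and the 3 KO libraries had 140, 43 and 71.2. All 7 of these libraries lay above all 3 WT libraries. KO-S had 10.3 and 4.32, Deltaex4 had 2.11 and 6.56, and KO-S3D had 17.8 and 4.67, all overlapping WT. The libraries labelled KO-L3D had 33.9 and 11.7, both above WT and below every KO and KO-L library.

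T rose by 4.96 ± 0.80 (log2, SE; adjusted p 7.10e-07) in KO-L, 31.1-fold, by 4.71 ± 0.82 (adjusted p 1.80e-05) in CSex4, 26.2-fold, and by 3.48 ± 0.58 (adjusted p 1.14e-07) in KO, 11.1-fold, in the authors' deposited tables. T was thus raised in the cells that always include exon 4 and in the long-isoform rescue, as in the knock-out. For the remaining groups the authors' deposited tables gave 1.83 ± 1.49 in KO-L3D (adjusted p 0.436), 0.71 ± 1.97 in KO-S3D, 0.25 ± 1.82 in KO-S and -0.58 ± 2.22 in Deltaex4. As bulk libraries were sequenced, more cells with T and more T RNA per cell cannot be told apart, here and for every gene below. The CSex4 value rests on libraries that differ widely: on the scale of log2 (scaled reads + 1) the difference from WT was 4.18 with both, 3.16 without the higher and 5.21 without the lower.

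Differences between groups were tested gene by gene from the authors' fold changes and standard errors, with Benjamini-Hochberg adjustment over all genes tested. T exceeded in KO-L its value in KO-S by 4.71 (log2; 95% interval 0.81 to 8.61), and in CSex4 its value in Deltaex4 by 5.29 (0.65 to 9.94). Neither passed (adjusted p 0.217 and 0.823, among genes with a baseMean of at least 10 in at least 1 of the 2 tables), and T had few reads and wide errors in the low groups. KO and KO-L differed by -1.48 (-3.43 to 0.46) and KO-L3D and KO-L by -3.13 (-6.45 to 0.18), and these did not pass either (adjusted p 0.835 and 0.339). So T is not shown by this test to differ between KO-L and KO-S, nor between CSex4 and Deltaex4, although the libraries of each pair do not overlap.

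**Figure D3:**
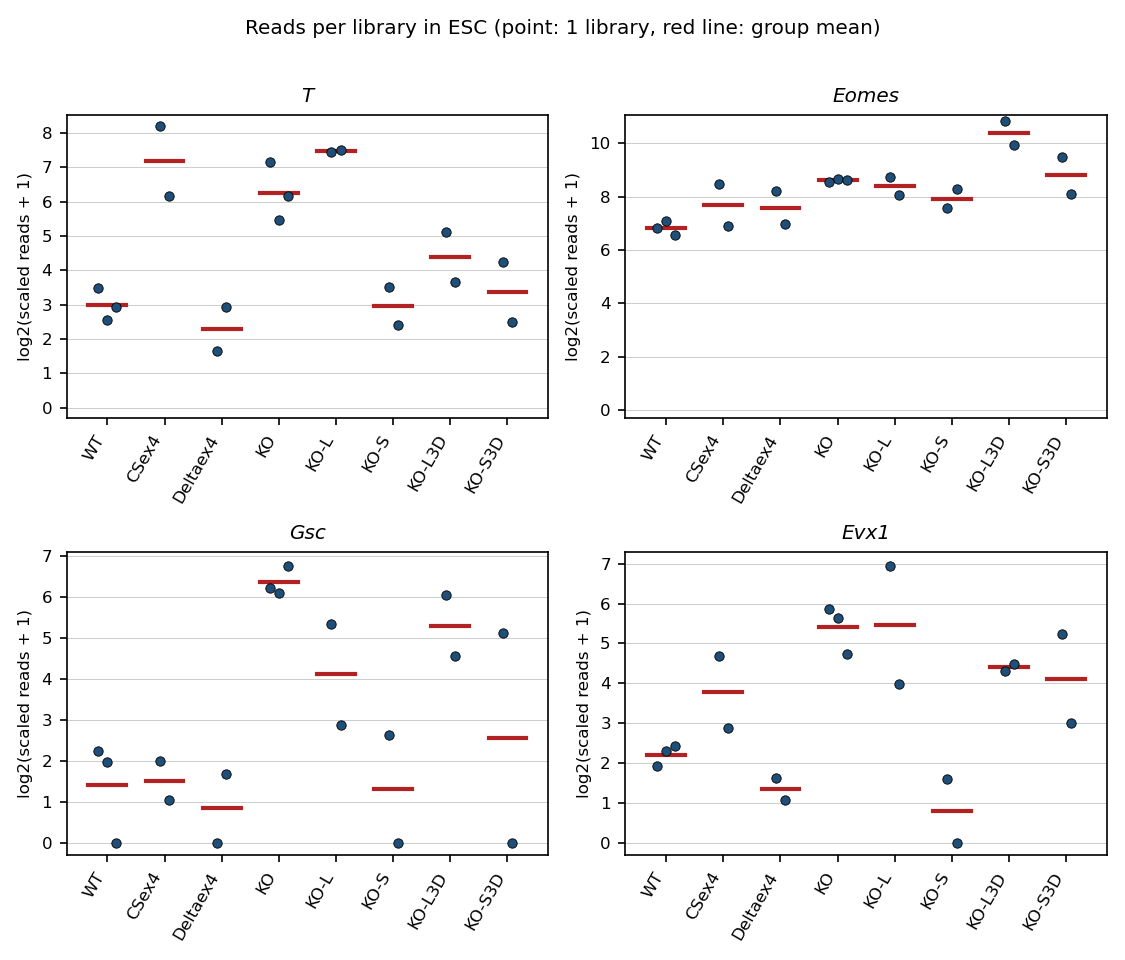
Level of T, Eomes, Gsc and Evx1 in each ESC library as log2 (scaled reads + 1), by group; points are libraries and red lines group means. T is high in CSex4, KO and KO-L (43 to 293 scaled reads, against 4.89 to 10.3 in WT), Eomes peaks in KO-L3D (973 and 1854), and Gsc is highest in the 3 KO libraries (67.5 to 108).

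Wnt signalling induces T in the embryo, and a list of 20 streak signals, with Wnt, Nodal, BMP and FGF ligands and feedback genes, was read beside it. In CSex4, 3 of 18 with an adjusted p were called higher and 0 lower, and in KO-L 6 of 19 higher and 1 lower. KO had 5 higher and 3 lower of 19, KO-S 2 and 1 of 17, KO-L3D 2 and 2 of 18, KO-S3D 1 and 0 of 17, and Deltaex4 0 of 20 with 0 at an unadjusted p under 0.05 in DESeq2. The median log2 fold change of the list was 0.89 in KO-L, 0.47 in CSex4 and 0.15 in KO, against 0.03, 0.01 and 0.06 over all genes.

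Wnt3, the ligand required for streak formation, was at 55, 43 and 11 scaled reads in ESC WT, at 569 and 247 in CSex4 and at 232 and 366 in KO-L. KO had 109, 45 and 21.3, which overlap WT, and KO-S had 28.9 and 23.8. Wnt3 rose by 4.01 ± 0.67 in CSex4 (adjusted p 5.63e-06) and 3.66 ± 0.67 in KO-L (adjusted p 2.32e-05) in the authors' deposited tables. It was not called in KO (0.67 ± 0.64, adjusted p 0.532, in the authors' deposited table). Sp5, a zinc finger factor induced by Wnt, was at 49.4, 30.3 and 14.3 in WT, 542 and 185 in CSex4, 157 and 268 in KO-L and 42.7, 15.7 and 22.4 in KO. Its rise was 3.88 ± 0.65 (adjusted p 5.63e-06) in CSex4 and 3.27 ± 0.68 (adjusted p 3.16e-04) in KO-L in the authors' deposited tables. So T, Wnt3 and Sp5 were all called higher in CSex4 and KO-L, and in KO only T of these 3 was; whether Wnt3 and Sp5 differed between those groups was not tested.

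Wnt8a, a Wnt ligand of the posterior epiblast, was at 11.2, 11.7 and 1.1 in WT, 102 and 107 in KO-L and 67.5 and 43.6 in CSex4, and rose by 4.45 ± 1.02 (adjusted p 0.00203) in KO-L in the authors' deposited table. KO instead had Wnt3a called higher (3.96 ± 0.69, adjusted p 3.20e-07, in the authors' deposited table), at 85.4, 101 and 48.8 scaled reads against 3.73, 7.82 and 3.29 in WT. Axin2, the Wnt feedback inhibitor, was at 160 to 187 in WT, 350 to 690 in KO, 529 and 508 in KO-L and 510 and 672 in KO-S, where T was at its WT level. Sp5 in KO-L and the library values of Wnt3, Wnt3a, Wnt8a, Sp5 and Axin2 were chosen for display after their values were seen.

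**Figure D4:**
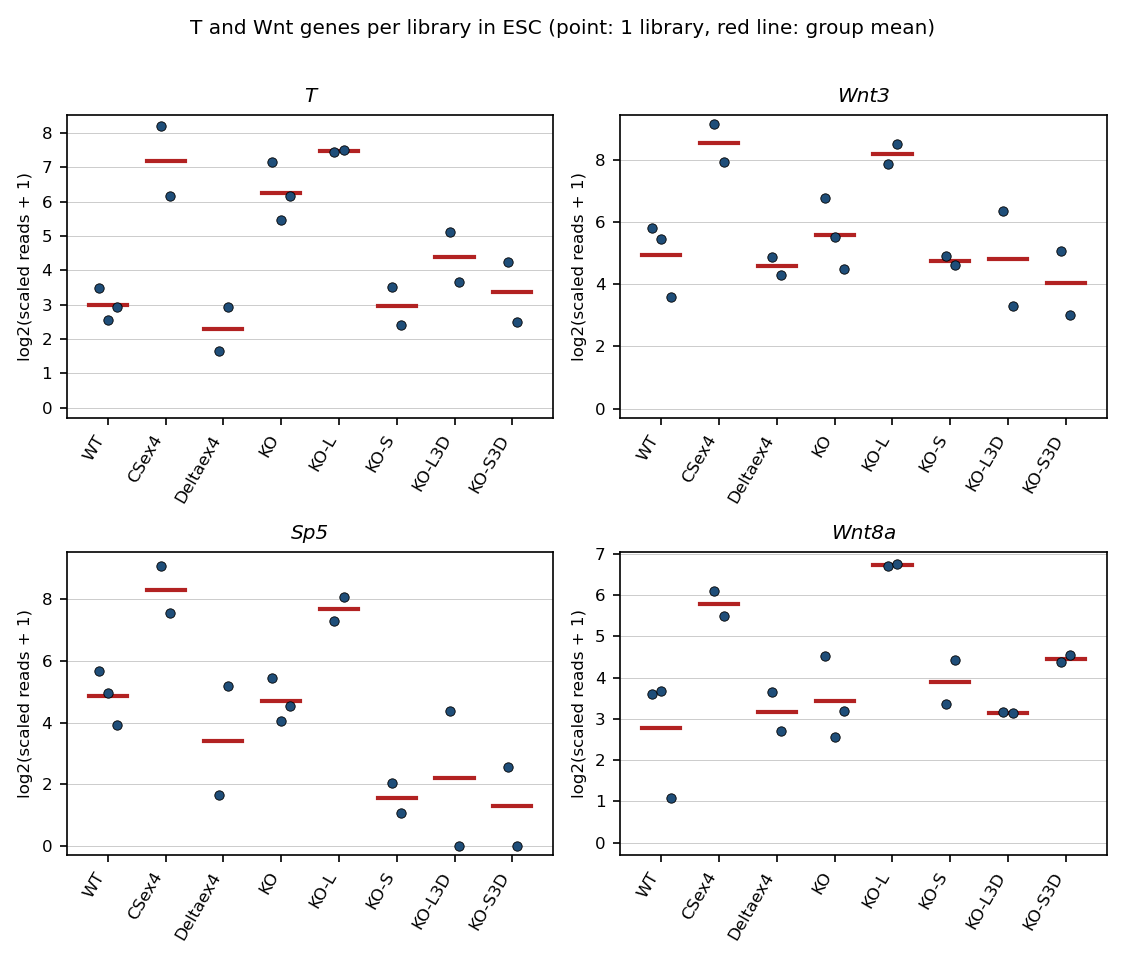
Level of T, Wnt3, Sp5 and Wnt8a in each ESC library as log2 (scaled reads + 1), by group; points are libraries and red lines group means. CSex4 and KO-L are high in all 4 genes, while the KO libraries are high in T (43 to 140) and overlap the WT range in Wnt3, Sp5 and Wnt8a.

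Markers of other states moved with T in the same tables, and their part in it was not tested. In CSex4, 3 of 6 pluripotency markers were called lower (Nanog, Klf4 and Esrrb), 3 of 5 trophoblast markers with an adjusted p higher, and 0 of 6 endoderm markers were called, with 2 at an unadjusted p under 0.05 in DESeq2. In KO-L, 3 of 5 trophoblast markers were higher, and 0 of 6 pluripotency and 0 of 6 endoderm markers were called, with 1 and 0 at an unadjusted p under 0.05 in DESeq2. In KO, where T, Eomes, Gsc and Evx1 were all called, 2 of 6 pluripotency markers were higher (Klf4 1.46 ± 0.23 and Nanog 1.28 ± 0.20) and 2 of 6 trophoblast markers (Gata3 3.27 ± 0.41 and Krt7 1.62 ± 0.38) in the authors' deposited table. None of these 2 lists was lower in KO, and 0 of 6 endoderm markers were called there, with 1 at an unadjusted p under 0.05 in DESeq2. The summed level of Gata4, Gata6, Sox17, Foxa2 and Sox7 was 707, 746 and 813 scaled reads in KO. It was 434 and 237 in KO-L, 201 and 145 in CSex4, and 103, 112 and 2141 in WT. With WT so spread, the absence of a call does not show that endoderm markers stayed level. Krt8 had the largest call of the trophoblast list in CSex4, at 2.72 ± 0.45, and Gata3 in KO-L, at 2.26 ± 0.69, in the authors' deposited tables. Elf5, which defines the trophoblast lineage, stood at 3.97 and 2.13 scaled reads in CSex4, 7.32 and 1.05 in KO-L and 0 to 5.6 in WT.

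Eomes, a T-box factor of the early streak and definitive endoderm that trophoblast stem cells also need, was measured well in every ESC library. WT had 111, 134 and 93.2 scaled reads. KO had 377, 401 and 392, KO-L 430 and 266, and KO-S 188 and 311. The libraries labelled KO-L3D had 1854 and 973 and KO-S3D 718 and 274. All 11 libraries of KO and of the 4 rescue groups lay above all WT libraries, while CSex4 (354 and 117) and Deltaex4 (293 and 125) each had 1 library inside the WT range.

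Eomes rose by 3.59 ± 0.36 (adjusted p 7.75e-21) in KO-L3D, 12.1-fold, by 1.80 ± 0.27 (adjusted p 1.41e-09) in KO, by 1.61 ± 0.46 (adjusted p 0.0300) in KO-L and by 1.99 ± 0.58 (adjusted p 0.0260) in KO-S3D in the authors' deposited tables. KO-S had 1.12 ± 0.47 (adjusted p 0.132), CSex4 0.87 ± 0.60 (0.672) and Deltaex4 0.79 ± 0.62 (adjusted p 0.99998) in the authors' deposited tables. KO-L3D exceeded KO-L by 1.99 (0.84 to 3.14; adjusted p 0.0216; 4.88% of genes differed), and KO minus KO-L3D was -1.79 (-2.67 to -0.91; adjusted p 0.0132; 1.13% of genes differed). KO-L3D over KO-S3D was 1.60 (0.26 to 2.94), which did not pass (adjusted p 0.99986). KO-L and KO-S differed by 0.49 (-0.80 to 1.78; adjusted p 0.881). Among the 11 pairs of comparisons tested, these 2 differences of Eomes were the only ones of any member that passed. In the 9 pairs with none, the share of genes that differed was 0.0766% for CSex4 and Deltaex4, 3.94% for KO-L and KO-S, 0.732% for KO-S3D and KO-S, 0.0541% for KO-L3D and KO-S3D, 0.589% for KO and KO-L and 3.76% for KO and KO-S in ESC. In NP it was 1.78% for CSex4 and Deltaex4 and 10.3% for KO-L and KO-S, and between the KO effects of the stages it was 14.3%.

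Trophoblast markers were called together with Eomes in KO-L3D and not in KO-S3D, where 0 of 6 were called and 2 had an unadjusted p under 0.05 in DESeq2. Of 6 on the list, 3 were called higher in KO-L3D, led by Elf5 at 7.47 ± 1.00 (adjusted p 2.36e-11) and Gata3 at 4.06 ± 0.51 (adjusted p 2.43e-13) in the authors' deposited table. Elf5 was at 480 and 144 scaled reads in KO-L3D, 114 and 2.34 in KO-S3D and 19.2, 16.6 and 7.12 in KO. The summed level of Elf5, Gata3 and Krt7 was 4790 in the KO-L3D library with 1854 scaled reads of Eomes and 647 in the one with 973, and 5700 and 91.1 in the KO-S3D libraries with 718 and 274. It was 177 to 348 in WT and 683 to 1433 in KO. In both 3D groups the library with more Eomes was the one with more trophoblast RNA. Their part in the Eomes values was not tested. In KO-S3D the Eomes difference on the log2 (scaled reads + 1) scale was 1.98 with both libraries, 1.29 without the higher and 2.68 without the lower.

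Gsc, the homeobox factor of the anterior streak and organizer, was at 3.73, 2.93 and 0 scaled reads in ESC WT and at 74, 67.5 and 108 in KO, with no overlap. A library at 0 allows up to 3 reads. It rose by 5.31 ± 0.83 (adjusted p 8.84e-09) in KO, 39.6-fold, in the authors' deposited table. KO-L3D had 65.5 and 22.5 and rose by 5.30 ± 1.62 (adjusted p 0.0106) in the authors' deposited table. KO-L had 39.7 and 6.31, both above WT, but no adjusted p (4.24 ± 1.96, p 0.0309 unadjusted, in the authors' deposited table). KO-S (5.16 and 0), CSex4 (2.98 and 1.06) and Deltaex4 (0 and 2.19) overlapped WT, and KO-S3D had 33.6 in the library with high trophoblast markers and 0 in the other. Gsc thus overlapped WT in CSex4, where T did not. Without the WT library high in endoderm markers, which had 0 reads of Gsc, the difference in log2 (scaled reads + 1) was 4.26 in KO (4.96 with it) and 3.20 in KO-L3D (3.90).

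Evx1, the homeobox factor of the posterior streak, was at 2.8, 3.91 and 4.39 in ESC WT and 57.5, 48.9 and 25.4 in KO. It rose by 3.51 ± 0.77 (adjusted p 1.17e-04) in KO, 11.4-fold, in the authors' deposited table. KO-L had 122 and 14.7, KO-L3D 18.9 and 21.5, KO-S3D 36.6 and 7.01 and CSex4 24.8 and 6.38, all above WT, and none of these was called (KO-L 3.42 ± 1.21, adjusted p 0.131, in the authors' deposited table). KO-S (2.06 and 0) and Deltaex4 (2.11 and 1.09) lay below every WT library, at read numbers too low to tell a fall. The difference of KO over KO-S was 6.20 (-0.23 to 12.6; adjusted p 0.469, among genes with a baseMean of at least 10 in at least 1 table).

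Fgf8, the FGF ligand that cells need to leave the streak, had its highest ESC levels in KO-L, at 37.6 and 84.2 scaled reads, against 12.1, 8.8 and 0 in WT. Its value in KO-L in the authors' deposited table was 4.38 ± 1.36 with an adjusted p of 0.0564, so it was not called. KO had 19.2, 16.6 and 16.3, above WT, with 1.83 ± 1.10 (adjusted p 0.266) in the authors' deposited table. Of the 8 ESC groups only KO-L had both Fgf8 libraries above 30. CSex4 had 9.92 and 26.6, KO-S 2.06 and 4.32, and Deltaex4 4.21 and 6.56.

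Mixl1, a homeobox factor of the streak, was called in no ESC table. WT had 25.2, 16.6 and 8.78 scaled reads, KO 20.9, 23.5 and 22.4, within WT, and KO-L 46 and 47.4, KO-S 26.8 and 48.6, CSex4 33.7 and 25.5 and KO-L3D 30.8 and 30.3, above it. Its largest ESC value in the authors' deposited tables was 1.94 ± 1.06 in KO-L (adjusted p 0.562). Mixl1 thus overlapped WT in the KO, in which T, Gsc and Evx1 were 11.1-fold to 39.6-fold higher, although a listed Suz12 region lies on its gene as well. No test compared the genes with each other.

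Tbx6, the T-box factor of presomitic mesoderm, had 41.3 and 33.5 scaled reads in ESC KO-S, above 16.8, 7.82 and 14.3 in WT, and 4.36, 2.94 and 8.13 in KO. It had 1.81 ± 1.09 in KO-S (adjusted p 0.372) and -1.38 ± 1.04 in KO (adjusted p 0.402) in the authors' deposited tables. KO minus KO-S was -3.19 (-6.15 to -0.24), which did not pass (adjusted p 0.347, among genes with a baseMean of at least 10 in at least 1 table). KO-S is also the group with the highest endoderm markers, and their part in it was not tested. Mesp2, a bHLH factor of somite segmentation, ranged from 13.1 to 76.3 over the 18 ESC libraries, with KO-S highest (76.3 and 71.3) and 0.99 ± 0.78 there (adjusted p 0.545) in the authors' deposited table.

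Mesp1, the bHLH factor of early cardiac mesoderm, and Msgn1, the bHLH factor of presomitic mesoderm, stayed near 0. Mesp1 had 30 reads in all 18 ESC libraries together, at most 8 in 1 library, which was a KO library. Msgn1 had 16 reads in all, with 11 of 18 libraries at 0. Their standard errors in ESC in the authors' deposited tables were 2.08 to 4.99 log2 units, so a change could not be detected at this depth. In KO-L, with T at 171 and 181, Mesp1 had 1 read in each library and Msgn1 had 0.

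Genes that act after the streak were read from a list of 20 mesoderm derivatives. In KO 6 of 17 with an adjusted p were called higher and 3 lower, in KO-L3D 4 and 2 of 15, in CSex4 3 and 0 of 12, in KO-S 3 and 2 of 12, in KO-L 2 and 0 of 11, in KO-S3D 1 and 0 of 12, and in Deltaex4 0 of 20, with 1 at an unadjusted p under 0.05 in DESeq2. The largest rises were Foxc2 (4.31 ± 1.17), a forkhead factor, and Nkx1-2 (4.28 ± 1.09), a caudal epiblast factor, in KO, and Hand1 (6.08 ± 0.36), a factor of extra-embryonic mesoderm and trophoblast, and Cdx1 (4.46 ± 0.50), a caudal factor, in KO-L3D in the authors' deposited tables. In CSex4 the largest were Cdx2 (3.07 ± 0.82) and Kdr (2.64 ± 0.65) in the authors' deposited table. Dll1, the Notch ligand of presomitic mesoderm, was lower in KO-L3D (-4.43 ± 0.86), KO-S (-1.89 ± 0.60) and KO (-1.22 ± 0.37) in the authors' deposited tables.

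T, Eomes and Tbx6 belong to the T-box family, and 14 further family members were read for comparison. In KO 8 of 10 with an adjusted p were called higher and 1 lower, with a median log2 fold change of 3.05 over the list against 0.06 over all genes. Those with the largest calls, Tbx5 (4.25 ± 1.04) and Tbx18 (3.91 ± 0.68), are factors of later limb, heart and somite tissues, in the authors' deposited table. KO-L3D had 4 of 10 higher, KO-S 3 of 7, KO-L 1 of 5 and KO-S3D 1 of 6, with none lower, CSex4 1 of 4 higher and 1 lower, and Deltaex4 0 of 14 with 0 at an unadjusted p under 0.05 in DESeq2. In CSex4 and KO-L, where T was called higher too, Tbx20 (2.62 ± 0.69 and 2.64 ± 0.54) was the 1 family member called higher in the authors' deposited tables.

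In NP the member with the most reads was Eomes. The 2 WT libraries used against CSex4, Deltaex4 and KO had 142 and 55.4 scaled reads and the 2 used in the WT vs KO table had 17.5 and 22.6. CSex4 had 350 and 394, KO-L 607 and 421, KO 265 and 152, KO-S 201 and 168 and Deltaex4 133 and 93.8. CSex4, KO-L, KO and KO-S lay above all 4 WT libraries and Deltaex4 between them.

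Eomes rose by 2.05 ± 0.50 (adjusted p 0.00165) in NP CSex4 against WT, 4.15-fold, and by 1.33 ± 0.33 (adjusted p 5.98e-04) in KO-L against KO, 2.51-fold, in the authors' deposited tables. On the log2 (scaled reads + 1) scale the CSex4 difference was 2.05 with all libraries, 2.72 without the WT library at 142 and 1.39 without the one at 55.4. KO lay above both WT pairs, but the size and the call depended on the pair. The authors' deposited table with the first WT pair gave 1.17 ± 0.67 (adjusted p 0.220) for KO, and the table with the second pair gave -3.35 ± 0.63 (adjusted p 1.29e-06) for WT against the same KO libraries. KO-L exceeded KO-S by 1.46 (0.43 to 2.50) and CSex4 exceeded Deltaex4 by 1.73 (0.06 to 3.40), and neither passed (adjusted p 0.0541 and 0.433).

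Nodal-pathway and pluripotency genes were also high in NP CSex4 and KO-L, the groups with the most Eomes. Of the 20 streak signals, 9 of 19 with an adjusted p were called higher and 0 lower in CSex4, and 9 higher and 1 lower in KO-L against KO. The largest rises were Lefty1 and Lefty2, secreted Nodal inhibitors that Nodal itself induces, at 4.58 ± 0.42 and 4.55 ± 0.37 in CSex4 and 4.53 ± 0.24 and 4.76 ± 0.24 in KO-L in the authors' deposited tables. The summed level of Nanog, Klf4, Esrrb and Zfp42 was 24427 and 24885 scaled reads in CSex4, 17176 and 11962 in KO-L, 6612 and 2821 in KO and 2456 and 3078 in KO-S. In the WT libraries it was 7293, 2899, 1715 and 1777. The KO and KO-S values lay within this range, although Eomes in those groups lay above all WT libraries. The WT library with the most Eomes (142) was the one with 7293. Of 6 pluripotency markers 4 were called higher in CSex4 (Pou5f1, Nanog, Esrrb and Zfp42), and 4 higher (Nanog, Sox2, Esrrb and Zfp42) and 1 lower (Klf4) in KO-L. Sox2 was not particular to KO-L: against KO it also rose in KO-S (2.23 ± 0.22) and WT (2.82 ± 0.32) in the authors' deposited tables. Other markers moved in NP CSex4 as well. Of 6 trophoblast markers 2 were called higher and 0 lower, Tfap2c (2.25 ± 0.34) and Krt7 (1.74 ± 0.32), in the authors' deposited table. The summed level of Elf5, Gata3 and Tfap2c was 6397 and 6456 scaled reads there. It was 2352 to 4355 in KO, 1859 to 2557 in KO-L and 815 to 2438 in WT. Of 6 neural precursor markers 3 were called lower in CSex4 (Sox1, Pax6 and Nes) and 0 higher. The part of all these genes in the Eomes values was not tested.

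**Figure D5:**
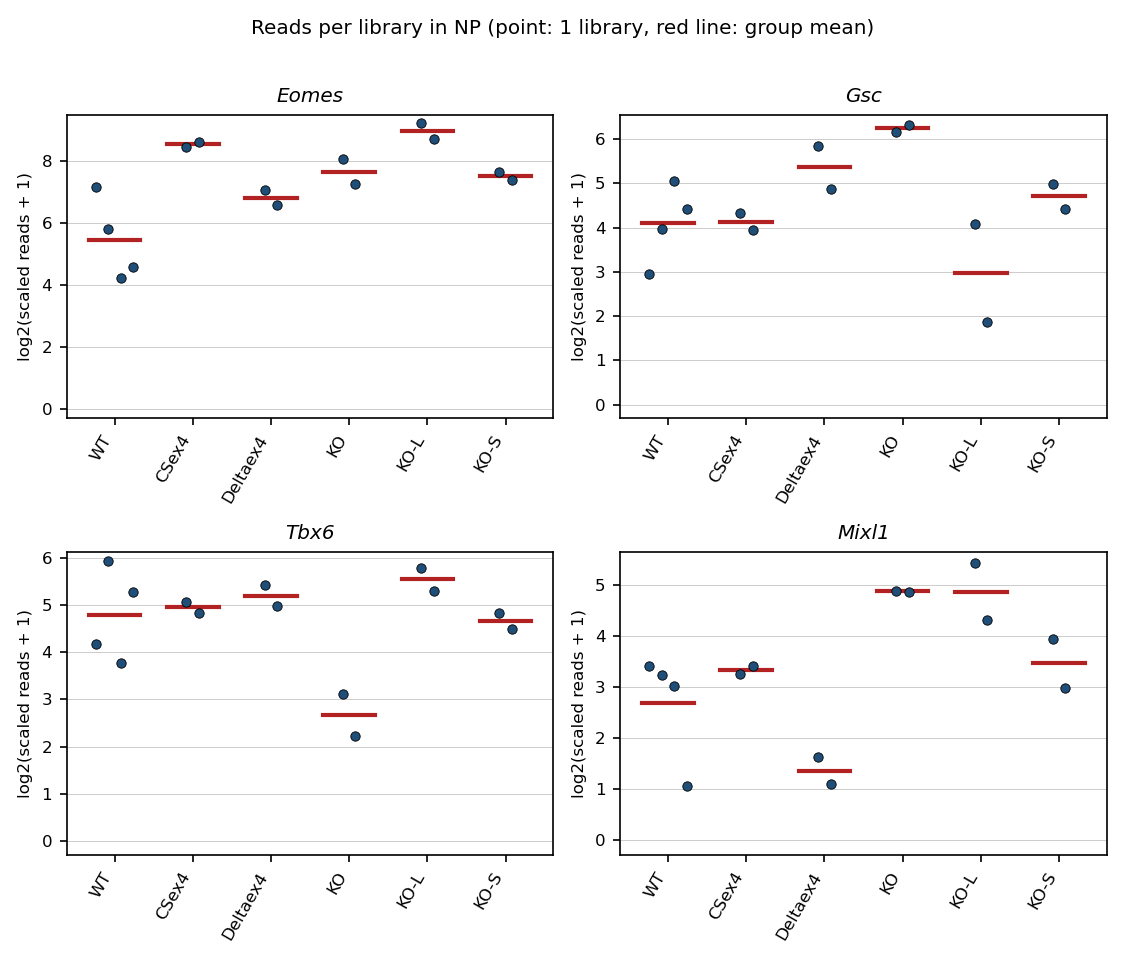
Level of Eomes, Gsc, Tbx6 and Mixl1 in each NP library as log2 (scaled reads + 1), by group; points are libraries and red lines group means. Eomes is highest in CSex4 and KO-L (350 to 607), Gsc is highest in KO (70.7 and 79.2), and Tbx6 is lowest in KO (7.61 and 3.65).

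Gsc was highest in NP KO, at 70.7 and 79.2 scaled reads, above 6.69, 14.6, 32.3 and 20.5 in WT, and the WT pairs again differed. It rose by 2.90 ± 1.01 (adjusted p 0.0236) in KO against the first WT pair, 7.45-fold, in the authors' deposited table. Against the second WT pair the authors' deposited table gave -1.53 ± 0.83 for WT (adjusted p 0.153), the same direction and not called. KO-L had 15.8 and 2.67 and fell by 3.30 ± 0.98 (adjusted p 0.00454) against KO in the authors' deposited table. On the log2 (scaled reads + 1) scale this difference was -3.27 with both KO-L libraries and -2.17 to -4.37 with 1 of the 4 libraries left out. KO-S had 30.8 and 20.6, with -1.57 ± 0.77 against KO (adjusted p 0.102) in the authors' deposited table. Deltaex4 had 56.6 and 28.3 and CSex4 19.1 and 14.4; Gsc was called in neither.

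Tbx6 was lowest in NP KO, at 7.61 and 3.65, and all other NP libraries had 12.6 or more. WT had 17.2, 60.6, 12.6 and 37.7, KO-L 54.3 and 38.8 and KO-S 27.5 and 21.7. It rose by 3.10 ± 1.13 (adjusted p 0.0275) in KO-L against KO, 8.57-fold, and had 2.19 ± 1.38 (adjusted p 0.223) in KO-S and 2.01 ± 1.50 (adjusted p 0.327) in WT against KO in the authors' deposited tables. KO against the first WT pair had -2.64 ± 1.36 (adjusted p 0.166) in the authors' deposited table. So Tbx6 ran opposite to Gsc in these groups, low in KO and higher in KO-L.

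Neural and endoderm markers moved in the same NP tables. Of 6 neural precursor markers, 5 were called lower in KO against WT, and against KO 4 were called higher and 1 lower in KO-L and 6 higher in KO-S. The largest falls in KO were Hes5 (-9.06 ± 0.95) and Fabp7 (-8.94 ± 0.85) in the authors' deposited table, while Sox1 was not called (-0.71 ± 0.43). Hes5 had 2.18 and 1.22 scaled reads in KO and 607 to 2308 in WT. The summed level of Sox1, Pax6, Hes5, Fabp7 and Neurog2 was 688 and 1099 in KO, 911 and 1197 in KO-L and 4377 to 12582 in WT. For KO, NP therefore names the culture protocol and not a cell type that these markers show. Of 6 endoderm markers 3 were higher in KO than in WT, 5 were lower in KO-L than in KO, and all 6 were lower in KO-S. Of 6 trophoblast markers 5 were higher in KO than in WT, and against KO 5 were lower and 1 higher in KO-L. The summed level of Gata6, Sox17, Foxa2 and Sox7 was 5958 and 7775 scaled reads in KO and 2055 to 4029 in WT. Their part in the Gsc and Tbx6 values was not tested.

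T was low in every NP group, between 1.06 and 28 scaled reads, and was highest in KO (13.1 and 28), above all 4 WT libraries (2.81 to 3.83). Its value in KO was 2.47 ± 1.75 (adjusted p 0.350) against the first WT pair, and WT of the second pair had -2.66 ± 1.65 against KO (adjusted p 0.223), in the authors' deposited tables. NP CSex4 and KO-L, whose ESC counterparts had high T, had 1.06 and 2.4 and 5.66 and 5.35. The difference between the NP and ESC effects of KO had an interval of -4.61 to 2.61 for T, those on Evx1 differed by -3.34 (-6.15 to -0.53) and those on Gsc by -2.41 (-4.97 to 0.16), and none passed. Their adjusted p were 0.801, 0.105 and 0.237, against the 14.3% of genes that differed between the stages.

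Mixl1 in NP had 28.3 and 28 in KO, above 9.56, 8.37, 7.02 and 1.08 in WT, with 1.65 ± 1.40 (adjusted p 0.461) against the first WT pair in the authors' deposited table. The second pair gave -3.15 ± 1.53 for WT against KO (p 0.0386 unadjusted, not called) in the authors' deposited table. Evx1 had 26.1 and 26.8 in KO, within its WT range of 14.7 to 30.2, and its highest level was in KO-L (28.3 and 69.5). Mesp2 ranged from 6.31 to 47.9 and Fgf8 from 0.70 to 33.9, where the highest Fgf8 library was 1 of the 2 Deltaex4 libraries. Mesp1 had 8 reads and Msgn1 12 in all 14 NP libraries together. Mesp1 had no read in any of the 4 libraries of the Deltaex4 table, which lists no value for it. None of these 6 genes was called in any NP table.

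Eomes and Mesp2 were the 2 genes with a baseMean of at least 10 in all 13 tables. Over the 13 comparisons, which share libraries, the log2 fold changes of Eomes in the authors' deposited tables were most like those of Tekt1 (Pearson's r 0.93) and Mfsd10 (0.91), among 13585 genes. Mesp2 was most like Gpx7 (0.93) and Cyct (0.92). These are descriptions of pattern with no test.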

How the data were processed

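The 10 genes and all lists were chosen with earlier results of these data known. RNA-seq of 32 libraries enters through 13 tables the authors deposited. Of the columns, baseMean is a deposited signal (reads over size factors, averaged by the authors), stat is a deposited score (the test statistic, not used further), and the authors' fold changes are log2 values with standard errors. The names the authors gave the tables mark all 13 as paired, without saying by what. The authors' p-value and adjusted p-value have the form DESeq2 gives; Bowtie, TopHat, DESeq2 and DiffBind, mm10 and dm3 are named in the submitters' processing notes, with no settings. The deposited region lists hold another value per region, a p-value or false discovery rate, which the header does not name and which is not used here.

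Whole reads per library were solved from baseMean with Python 3.11.15, numpy 2.4.6 and pandas 2.3.3. All 48210 low entries gave 1 solution, the 60 library places held 32 distinct libraries, and all 20 pairs of gene and stage were solved. On data simulated for ESC CSex4 vs WT, 100% of 3513 genes were recovered. Those were genes with few reads, so the simulation does not cover members with many, such as Eomes (up to 2349 reads in an ESC library). Reads were divided by size factors relative to WT; sides were read from the authors' signs. Reads were recovered for chosen genes only, so no count test was run and the authors' test stands. Differences of 2 fold changes were tested with a two-sided normal test (scipy 1.17.1) at a baseMean of at least 10 in both tables; shared controls make its errors large. Genes were placed with the RefSeq table; 8 of 10 have a start-site window there. Named genes of the lists are up to 2 called rises and 2 falls per list and comparison. Figures used matplotlib 3.10.9.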

Additional observations from a re-analysis of the deposited data

Results flagged for a closer look

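Eomes differed between comparisons by the test of the difference itself. Its log2 fold change was 1.99 higher in the ESC libraries labelled KO-L3D than in KO-L, and its value in KO was -1.79 relative to KO-L3D (adjusted p 0.0227 and 0.0138 when genes needed a baseMean of at least 10 in at least 1 table). Both differences use the same KO-L3D libraries, and the WT libraries are shared too, so they are not independent findings. Mesp1 in NP WT was marked because 1 of the 4 libraries had 1.08 scaled reads, which is 1 read, and the other 3 had 0. The rule marks about 1 in 20 groups by chance where values vary smoothly. That rate does not hold for counts near 0, where 1 read is enough to mark a group.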

How the results depend on the processing

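At an adjusted p under 0.01 in place of 0.05, the number of the 10 genes called went to 1 in ESC KO-L and 1 in KO-L3D (from 2 each), to 0 in KO-S3D and to 0 in NP KO against WT (from 1 each), and the number that differed went to 0 both for KO-L3D against KO-L and for KO against KO-L3D (from 1 each). NP KO-L against KO went from 3 to 2, losing Tbx6 (adjusted p 0.0275). With Benjamini-Hochberg adjustment over every gene with a p-value, with a baseMean of at least 10, or with a log2 fold change of at least 1, the counts of called members stayed within 1.5 times. No value reversed. With the other pair of WT libraries, NP KO gave 3.35 for Eomes, which was then called, and 1.53 for Gsc, which was then not called. The values without libraries that stood apart were added after seeing the data. Leaving out 1 library at a time could not change the sign of the 16 called values, as their groups did not overlap. For T in ESC CSex4 the difference ran from 3.16 to 5.21. No paired analysis was possible because the tables hold statistics of comparisons and the recovered libraries carry no replicate number. The authors name the tables as paired, so their values may already come from a paired fit. Deposited fold changes do not always follow the group means. Fgf8 in ESC KO-S had 0.90 ± 2.41 in the authors' deposited table, with means of 3.19 scaled reads there and 6.97 in WT. The differences of log2 (scaled reads + 1) given here ignore any pairing. Genes with few reads (Mesp1, Msgn1, and T in most NP groups) limit what can be seen: their standard errors exceed most differences.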
